A study of Mus musculus with 4 samples.

Results

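Tnfrsf25 encodes DR3, the receptor of the cytokine TL1A, and it was examined here with 7 related receptor genes of the TNF receptor superfamily: Tnfrsf4 (OX40), Tnfrsf9 (4-1BB), Tnfrsf18 (GITR), Cd27, Tnfrsf1b (TNF receptor 2), Cd40 and Tnfrsf14 (HVEM). The 8 genes were set by symbol, with no threshold on their values, and each was found in all 4 matrices, among 32285 features. The matrices came from single-cell RNA sequencing of MC38b tumours engrafted in mice (MC38 is a mouse colon carcinoma line). The 4 libraries were 2 from saline (PBS), called PBS 1 and PBS 2, 1 from an antibody to mouse PD-1, called anti-PD-1, and 1 from antibodies to PD-1 and to TL1A, called the combination. By its title, the series asks what blockade of TL1A adds to blockade of PD-1, an inhibitory receptor of activated T cells. All groups carried the same engrafted tumour, received 2 doses, and were sampled 24 h after the last one. Live cells were sorted into T cells (CD45+CD3+), other leukocytes (CD45+CD3-) and tumour and stroma (CD45-CD3-), remixed at 9 to 9 to 2 parts and loaded at 20000 cells per condition. The labels state 2 saline and 4 treated animals, pooled before sorting. The strain, sex and age of the mice, and the animals behind each library, are not given in the sources used here, so p-values measure only the spread between libraries, which may be technical.

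These receptors sit on the surface of lymphocytes and myeloid cells and are engaged by ligands that mostly belong to the TNF family. Most of them carry no death domain and bind TRAF adaptor proteins, which turn on NF-kB and support survival, division and cytokine production; DR3 has a death domain and acts through the adaptor TRADD. OX40, 4-1BB and GITR are known as receptors that activated T cells gain and that regulatory T cells hold at high levels, CD27 is carried by resting T cells and some NK cells, TNF receptor 2 is known on regulatory T cells and myeloid cells, and CD40 is the receptor through which dendritic cells, macrophages and B cells receive help from CD4 T cells. DR3 is known on T cells, regulatory T cells and innate-like lymphocytes.

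On GRCm38, 6 of the 8 genes lie on chromosome 4, within 10815433 bases. Tnfrsf25 spans chr4:152115934-152120119 on the plus strand. Tnfrsf4 (chr4:156013843-156016612, plus) and Tnfrsf18 (chr4:156026164-156028895, plus) are neighbours, with 9551 bases between them. Tnfrsf9 lies at chr4:150914562-150946102 (plus), Tnfrsf1b at chr4:145213463-145246870 (minus), Tnfrsf14 at chr4:154921933-154928563 (minus), Cd27 at chr6:125232622-125237010 (minus) and Cd40 at chr2:165055627-165072948 (plus). The exons of Tnfrsf18 overlap an antisense gene, Gm16008, and 25.1% of the 31-base words of Tnfrsf14's 500 most 3' bases also occur in Gm16222. No source used here says whether counting used strand, so both genes' counts are uncertain to that extent.

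The RefSeq promoter table (GRCm38.p6) held 7 of the 8 genes with 9 start sites, all but Cd40. The 250 bases before the start are shown for Tnfrsf25, the receptor of the cytokine that the combination blocks, and for Tnfrsf9 and Cd27, which both rose in the CD8 class of the combination. Tnfrsf4 also rose there, but 166 of the 250 bases of its window lie in annotated exons, so it is not shown. Capitals mark matches to the NF-kB motif GGGNNNNNCC, read on both strands, where overlapping matches form 1 run.
Tnfrsf25 (first start, chr4:152115684-152115933, plus): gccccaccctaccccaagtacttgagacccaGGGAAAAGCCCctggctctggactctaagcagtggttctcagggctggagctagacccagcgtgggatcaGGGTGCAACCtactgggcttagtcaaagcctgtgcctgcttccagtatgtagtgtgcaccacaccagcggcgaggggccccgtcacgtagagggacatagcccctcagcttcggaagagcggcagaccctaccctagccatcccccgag
Tnfrsf9 (first start, chr4:150919905-150920154, plus): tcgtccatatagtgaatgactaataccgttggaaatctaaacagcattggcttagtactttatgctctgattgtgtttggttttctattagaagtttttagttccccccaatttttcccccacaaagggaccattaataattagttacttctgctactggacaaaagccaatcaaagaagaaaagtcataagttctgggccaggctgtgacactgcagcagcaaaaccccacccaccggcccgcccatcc
Cd27 (chr6:125237028-125237277, minus): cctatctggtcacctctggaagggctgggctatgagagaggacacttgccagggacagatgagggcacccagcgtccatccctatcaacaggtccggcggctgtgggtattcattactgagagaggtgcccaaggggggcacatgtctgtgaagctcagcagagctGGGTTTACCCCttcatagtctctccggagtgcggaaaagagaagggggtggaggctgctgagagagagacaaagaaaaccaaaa
The Tnfrsf25 window held 3 matches, GGGAAAAGCC, GGAAAAGCCC and GGGTGCAACC, of which the first and second overlap. The Cd27 window held GGGTTTACCC and GGTTTACCCC, which overlap, and the Tnfrsf9 window held none, nor did that of Tnfrsf4. The window of the second Tnfrsf9 start (81 of its bases in annotated exons) held 2 matches, and that of the second Tnfrsf25 start 2. The motif occurs in 45.8% of 32851 windows of that length, so a match is common. The AP-1 motif TGANTCA, found in 6.75% of those windows, was in none of the 3 shown and occurred once in the window of the second Tnfrsf9 start.

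The files held 6732 barcodes for PBS 1, 6448 for PBS 2, 13231 for anti-PD-1 and 11177 for the combination, with total counts of unique molecular identifiers (UMIs) between 78648222 and 142600208. Median UMIs per barcode were lowest in the anti-PD-1 library, at 3588, against 7098 to 7798 in the rest. Barcodes that occur in more than 1 library numbered 1283, 1805, 2402 and 74 in PBS 1, PBS 2, anti-PD-1 and the combination. The PBS pair shared 673, and the anti-PD-1 library shared 1255 with PBS 1 and 1778 with PBS 2, whereas the combination shared 21 to 39 with each other library. In the 3 large sets, the smaller copy held a median of 1.15% to 2.65% of the UMIs of the larger. Such barcodes made up 8.79% and 14.6% of CD8 T cells in PBS 1 and PBS 2 but 1.36% and 0.685% in the treated libraries, and 18.7% and 25.4% against 2.08% and 0.818% of monocytes and macrophages. They made up 99.4% and 98.8% of CD45-negative cells in the PBS libraries, so that class keeps 2 cells in each without them. Each change of a receptor gene below that passed the test in 1 of the 9 tested classes is therefore also given without shared barcodes. Of the smaller copies in the 3 large sets, 96.3% to 97.6% were in no named class. In the named classes that setting thus mostly leaves out larger copies. In CD8 T cells and in monocytes and macrophages most of them are from the PBS libraries, whose values it shifts. Cells were grouped into 14 classes by marker genes, with the 8 receptor genes left out of the clustering, and 9 classes were tested. The CD45-negative class was not divided into tumour and stroma.

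Tnfrsf25 was detected in T cells and was at or near 0 elsewhere. Levels are given as CPM (UMIs of a gene scaled to the total UMIs of the class), as the mean over 4 libraries ± SD, with no test between classes. The mean was 13.4 ± 4.09 in conventional CD4 T cells (T cells with Cd4 and without Foxp3), 4.49 ± 1.56 in regulatory T cells (Foxp3-positive), 1.97 ± 0.471 in double-negative T cells (T cell clusters below the thresholds for Cd4 and Cd8, some with gamma-delta genes) and 1.11 ± 0.369 in CD8 T cells. The libraries of conventional CD4 T cells, 7.40 to 16.3, lay above all those of regulatory T cells, 2.52 to 5.90, which in turn lay above the double-negative T cells. Double-negative T cells, CD8 T cells, conventional dendritic cells (0.669 ± 1.34) and NK cells (0.431 ± 0.192) overlapped from each to the next. Monocytes and macrophages held 1 Tnfrsf25 UMI in 3924 cells, and B cells and neutrophils none. A count of 0 allows a share of up to 0.571% of 525 B cells and up to 0.459% of 654 neutrophils.

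**Figure D1:**
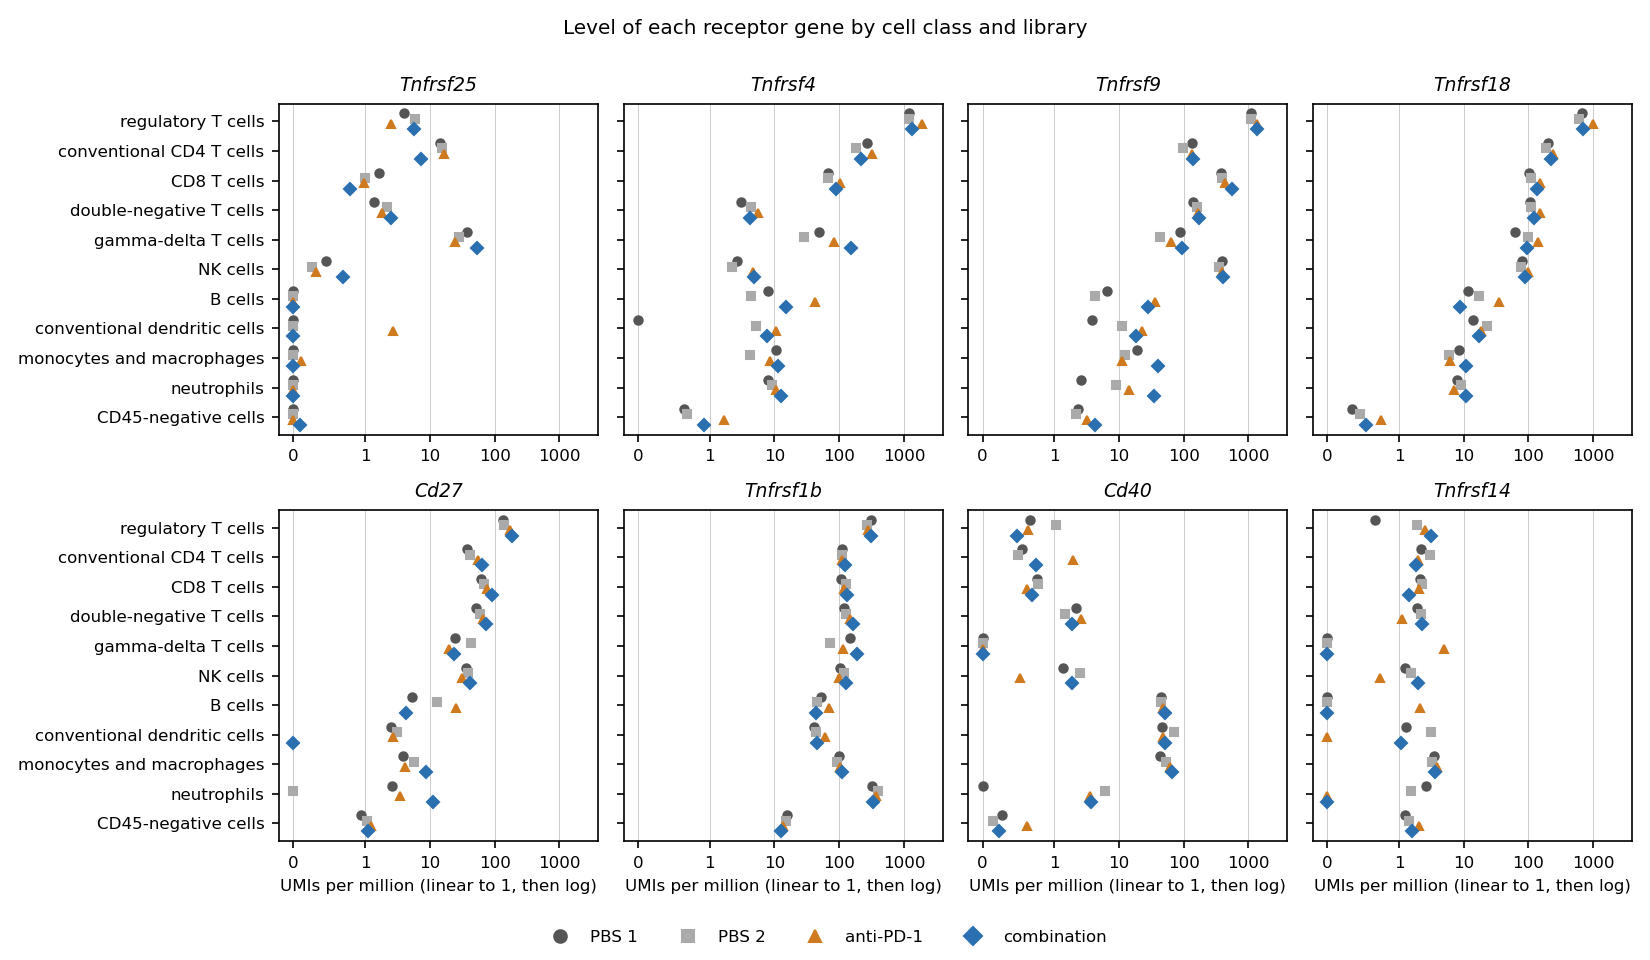
Level of each of the 8 receptor genes (x axis, CPM, linear to 1 and then logarithmic) in 11 cell classes (y axis), with 1 symbol per library. Tnfrsf25 is highest in gamma-delta and conventional CD4 T cells, Tnfrsf4, Tnfrsf9, Tnfrsf18 and Cd27 are highest in regulatory T cells, Tnfrsf1b in neutrophils and regulatory T cells, and Cd40 in myeloid and B cells.

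The class with the highest Tnfrsf25 level was small. Gamma-delta T cells, an innate-like lineage with its own antigen receptor, numbered 50 in PBS 1, 13 in PBS 2, 54 in anti-PD-1 and 56 in the combination, and formed 1 cluster led by Il23r, Zbtb16, Il1r1 and Adam12, with Il17a among its markers. Not all cells with gamma-delta genes are in it: the double-negative class holds clusters of 1159 and 105 cells in which Trdc, the constant gene of the delta chain, is among the leading genes, beside Klra receptor genes. Tnfrsf25 stood at 1.15 CPM in the first of these and had 0 UMIs in the second, so the high level described here is that of the Il23r and Il17a cluster. Its Tnfrsf25 level was 38.1, 28.5, 24.6 and 53.9 CPM in those libraries, from 11, 2, 5 and 16 UMIs. Pooled, it was 39.6 CPM (exact 95% Poisson interval 27.4 to 55.3). All 4 values lay above every library of the other classes, although the interval of PBS 2 was wide (3.45 to 103). All intervals given here cover counting error only. Of these cells, 18.5% held a Tnfrsf25 UMI (exact 95% Clopper-Pearson interval 13.0 to 25.1, 32 of 173 cells, median 4534 UMIs). The share was 5.81% (4.73 to 7.06) of 1635 conventional CD4 T cells at a median of 4472 UMIs, 2.4% (1.84 to 3.07) of 2544 regulatory T cells at 4293 UMIs, 1.02% of 7632 CD8 T cells at 8233 UMIs and 0.352% of 5113 NK cells at 5882 UMIs. Monocytes and macrophages, in which the gene was scarcely detected, gave 0.0255% at a median of 8687 UMIs. The T cell shares stood above that of monocytes and macrophages although the T cells were shallower.

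Within classes, Tnfrsf25 was uneven between clusters. Among conventional CD4 T cells it reached 19.8 CPM in a cluster of 193 cells led by Tnfsf8, Tnfsf11, Cd4 and Penk and 11.2 CPM in the larger cluster of 1442 cells. Among regulatory T cells it reached 14.1 CPM in a cluster of 303 cells led by Cpm, Foxp3, Trat1 and Myo3b, against 4.17 CPM in the largest cluster of 1768 cells. A double-negative cluster of 409 cells with Zbtb16 and Klra9 among its leading genes held 7.44 CPM, and naive-like CD8 T cells held 3.63 CPM. These clusters were formed on the same cells, so the differences between them are descriptive.

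Tnfrsf25 did not pass the test in any class or comparison. In conventional CD4 T cells its normalised level (CPM scaled with TMM, the form used in all tests below) was 14.5 in PBS 1, 15.2 in PBS 2, 17.1 in anti-PD-1 and 7.39 in the combination. The combination library was thus the lowest of the 4. Its log2 fold change against PBS was -1.003 ± 0.44 (SE), with an adjusted p of 0.766 by edgeR's quasi-likelihood test (unadjusted p 0.0234), and against anti-PD-1 it was -1.21 ± 0.52 (adjusted p 0.615). None of 15 alternative settings called either difference. Those that alter only other classes repeat the main fit here and could not have called them. These values rest on 26, 31, 25 and 20 UMIs, and the Poisson intervals of PBS 1 (9.43 to 21.2) and the combination (4.52 to 11.4) overlap. The share of these cells with a UMI was 7.36%, 8.26%, 5.42% and 3.66%, and 1.23%, 1.47%, 1.69% and 0.55% once each cell was thinned to 1000 UMIs, leaving out at most 9 cells of a library. In regulatory T cells the levels were 4.01, 5.72, 2.60 and 5.63, where anti-PD-1 was lowest and the combination lay within the PBS pair; the log2 fold changes were -0.92 ± 0.62 and 0.19 ± 0.50. In CD8 T cells the levels were 1.65, 0.967, 1.04 and 0.781, with no adjusted p under 0.599 against PBS.

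**Figure D2:**
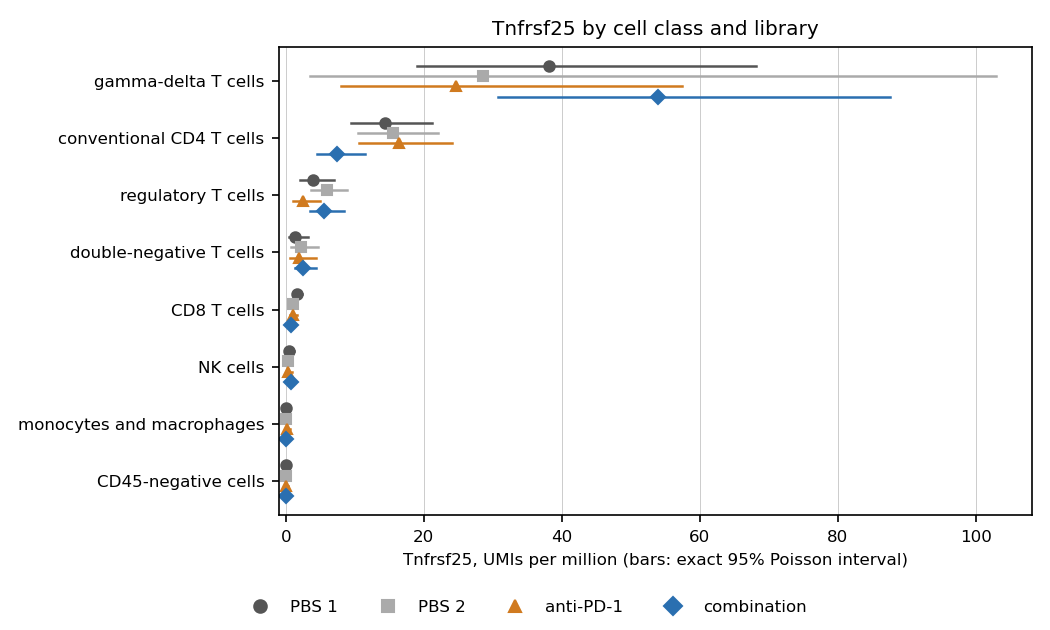
Tnfrsf25 in CPM (x axis) in each library of 8 cell classes (y axis), with exact 95% Poisson intervals as bars. Gamma-delta T cells have the highest values and the widest intervals, and the combination library is lowest of the 4 among conventional CD4 T cells, with an interval that overlaps those of the PBS libraries.

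TL1A itself, encoded by Tnfsf15, was rare. Pooled over libraries, it was found at 0.869 CPM in monocytes and macrophages (40 UMIs in 3924 cells, interval 0.621 to 1.18), with 0.562, 1.13, 0.564 and 1.14 CPM in PBS 1, PBS 2, anti-PD-1 and the combination. The level thus varied as much between the PBS libraries as between groups. Conventional dendritic cells held 1.46 CPM (5 UMIs) and mature dendritic cells, a migratory state marked by Ccr7 and Fscn1, held 2.40 CPM (5 UMIs). No Tnfsf15 UMI was seen in regulatory, gamma-delta or double-negative T cells, B cells, neutrophils or CD45-negative cells; the upper limit in CD45-negative cells was 0.0415 CPM.

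Across all 8 members, Tnfrsf25 included, 9 classes gave 72 pairs of gene and class, and 54 passed the filter on low counts. Against PBS, 3 pairs were higher in anti-PD-1 and none lower, and 7 were higher in the combination and none lower (edgeR, adjusted p under 0.05). Of all genes tested in these classes together, 3.57% were called in anti-PD-1 against PBS and 2.46% in the combination against PBS; counting higher genes alone, the shares were 1.97% and 1.34%. In the combination against anti-PD-1, 1 pair was higher and none lower, beside 2.36% of all genes. At an unadjusted p under 0.05 there were 20, 17 and 9 pairs in these 3 comparisons, beside 13.6%, 11% and 12.6% of all genes. Counting higher genes alone, the share in that comparison was 1.25%. DESeq2 called 3, 2 and 0, where 1.02%, 0.266% and 0.36% of the genes to which it gave an adjusted p were called. Both comparisons against PBS share the PBS libraries, each treated group is 1 library assumed to vary as the PBS pair does, and the third comparison sets 2 libraries against each other, not 2 conditions.

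**Figure D3:**
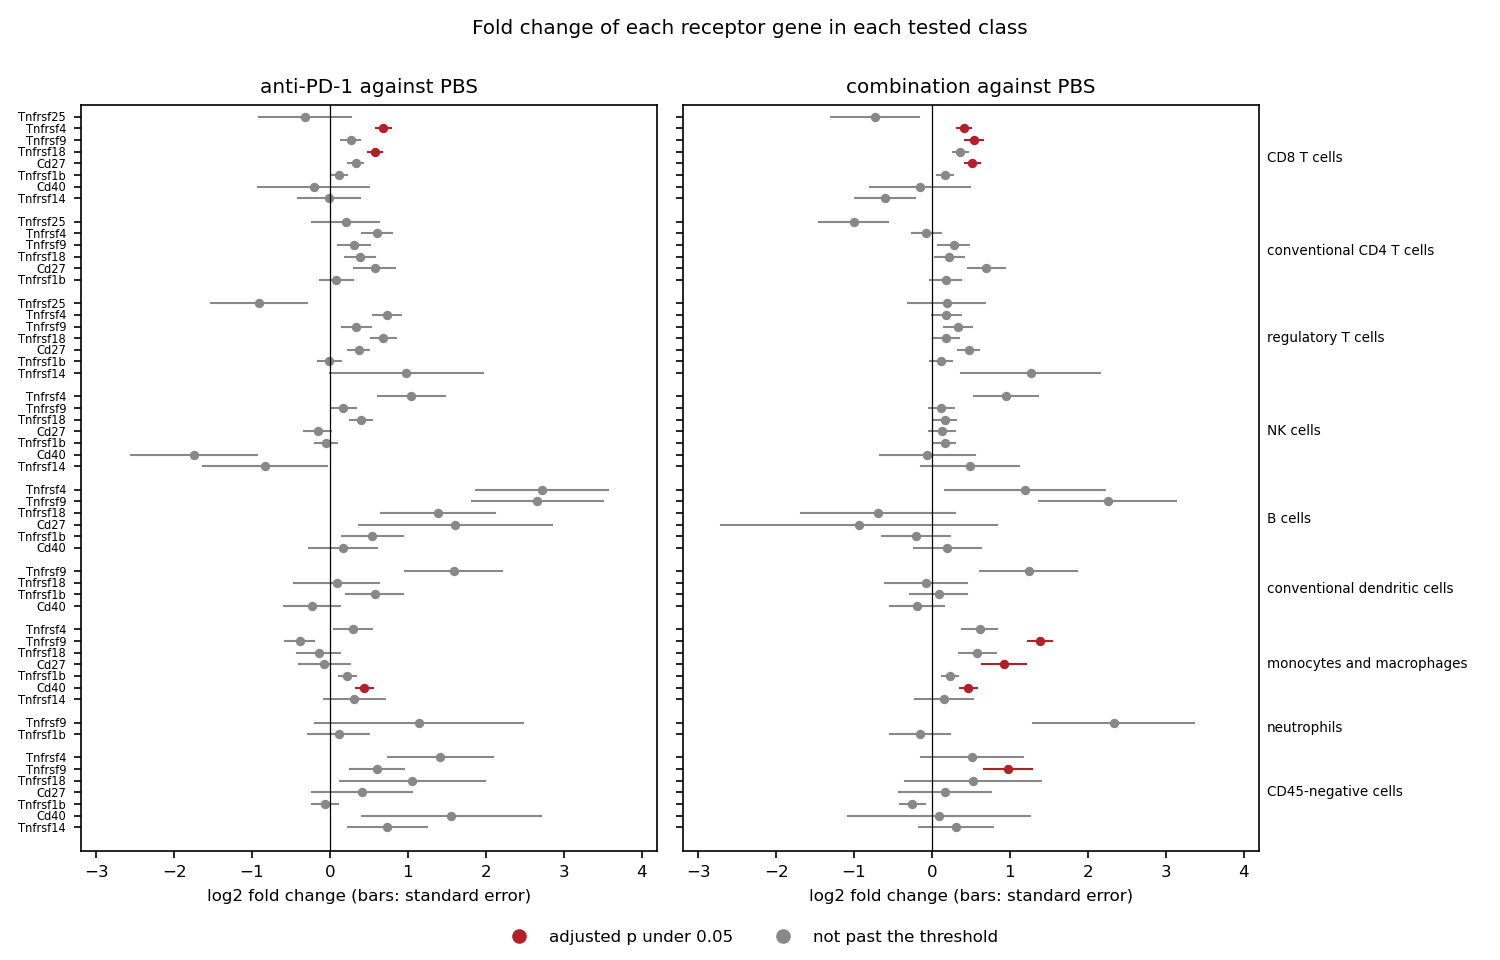
Log2 fold change (x axis, bars are standard errors) of each receptor gene that passed the filter in each tested class (y axis), for anti-PD-1 against PBS (left) and the combination against PBS (right). Red marks adjusted p under 0.05: 3 pairs on the left and 7 on the right, in CD8 T cells, monocytes and macrophages and CD45-negative cells.

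In CD8 T cells, 4 costimulatory receptor genes were higher after treatment: Tnfrsf4 and Tnfrsf18 in anti-PD-1, and Tnfrsf4, Tnfrsf9 and Cd27 in the combination. The changes were of 0.41 to 0.69 on the log2 scale. All 8 members passed the filter in this class, where 2 and 3 were called, and 2.83% and 2.17% of 14780 genes were called in the same comparisons (2.19% and 1.17% as higher). The median log2 fold change of the 8 was 0.19 and 0.26, and that of all genes -0.01 and -0.02. Against anti-PD-1 no member was called in the combination by edgeR or DESeq2 (1 at an unadjusted p under 0.05, beside 14.8% of all genes; 0.839% of all genes called).

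Tnfrsf4, whose product OX40 prolongs T cell survival, stood at 67.1 and 65.5 in the PBS libraries, 106.5 in anti-PD-1 and 88.2 in the combination, on the scale of TMM-normalised CPM. Both treated libraries lay above the PBS pair, which differed little. The log2 fold change was 0.69 ± 0.09 in anti-PD-1 (adjusted p 0.00512) and 0.41 ± 0.09 in the combination (adjusted p 0.0376). The first was called under all 15 alternative settings and the second under 8. Settings that alter only other classes leave the CD8 class unchanged and repeat the main fit. Such repeats are among the 15 for each gene of this class. Without shared barcodes, where 6.88% and 6.51% of genes were called, the libraries read 49.6, 56.3, 108 and 88.2, and the changes were 1.03 (adjusted p 0.000729) and 0.74 (adjusted p 0.00224).

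Tnfrsf18, whose product GITR is a costimulator held at high levels on regulatory T cells, read 103.5, 106.8, 156.7 and 135.3 in the same order. The PBS libraries were again close and both treated libraries higher. The change was 0.58 ± 0.09 in anti-PD-1 (adjusted p 0.0103, called under all 15 alternatives), and 0.36 ± 0.09 in the combination, which missed the threshold (adjusted p 0.0697). Without shared barcodes the change in anti-PD-1 was 0.57 (adjusted p 0.01).

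Tnfrsf9 encodes 4-1BB, a receptor gained on activation, and read 381, 379.5, 457 and 551. The combination library was the highest and anti-PD-1 lay between it and the PBS pair. The change was 0.54 ± 0.12 in the combination (adjusted p 0.0338, called under 10 of 15 alternatives) and 0.27 ± 0.12 in anti-PD-1 (adjusted p 0.281). Without shared barcodes the libraries read 325, 311, 465 and 550, and Tnfrsf9 passed the test in both treated groups, at 0.79 (adjusted p 0.00274) and 0.55 (adjusted p 0.0209).

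Cd27, which marks T cells short of terminal differentiation and binds CD70, read 61.7, 65.6, 80.1 and 91.2. Its change was 0.52 ± 0.09 in the combination (adjusted p 0.0152) and 0.33 ± 0.10 in anti-PD-1 (adjusted p 0.0926). The call in the combination held under 14 of 15 alternatives and was lost with DESeq2 (adjusted p 0.306); without shared barcodes the change was 0.43 (adjusted p 0.045). Tnfrsf1b, Tnfrsf14, Cd40 and Tnfrsf25 did not pass in CD8 T cells. Tnfrsf1b read 108.5, 123.2, 126 and 129.8, and Tnfrsf14 and Cd40 stood at 2.16 or below in each library.

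The make-up of the CD8 class also differed between libraries. Naive-like clusters held 38.4%, 30.1%, 23.8% and 17.2% of its cells, in the order of PBS 1, PBS 2, anti-PD-1, combination. Tnfrsf4 stood at 5.90, 4.17, 7.44 and 6.28 CPM in those clusters and at 88.2 to 126.4 in the CD8 T cells that were neither naive-like nor cycling. Tnfrsf9 stood at 30.9, 17.8, 32.0 and 36.0 against 487.2 to 622.7. Over the whole CD8 class and without TMM scaling, Tnfrsf9 stood at 378.6, 394.4, 436.2 and 557.7 CPM and Cd27 at 61.3, 68.2, 76.4 and 92.3. With TMM scaling, PBS 2 was not above PBS 1 for Tnfrsf9. The part of the naive-like share in these changes was not tested. The summed level of 8 NK markers (none at 0) was 647.5 and 701.1 CPM in the PBS libraries, 1149 in anti-PD-1 and 1161 in the combination. The part of the NK markers in these changes was not tested. Foxp3, the defining gene of regulatory T cells, in which the same receptors are highest, stood at 2.40, 2.72, 5.004 and 3.70 CPM in CD8 T cells and at 360.2 to 512.6 CPM in regulatory T cells. The summed level of all 5 regulatory T cell markers (Foxp3, Il2ra, Ikzf2, Ctla4 and Ccr8, none at 0) in CD8 T cells was 725.7, 818.5, 811.4 and 1097 CPM. Ctla4 and Il2ra are also counted below among T cell activation genes, so the sum is not specific to regulatory T cells. In CD8 T cells with no Foxp3 UMI, Tnfrsf4 stood at 60.1, 66.5, 93.7 and 80.9 CPM without TMM scaling, Tnfrsf18 at 98.8, 110.1, 146.5 and 133.5, Tnfrsf9 at 375.7, 389.8, 429.7 and 543.4 and Cd27 at 61.4, 67.9, 76.6 and 91.9. Both treated libraries lay above the PBS pair for each gene there. Only 69.8% to 79.5% of regulatory T cells held a Foxp3 UMI, so this selection cannot remove all regulatory T cell transcripts. Their part in these changes was not tested. Without the naive-like clusters, Tnfrsf4 remained called in anti-PD-1 at 0.56 and Tnfrsf18 at 0.51 (adjusted p 0.00439 and 0.00794), as did Cd27 in the combination at 0.48 (adjusted p 0.0115). In that setting the combination no longer passed for Tnfrsf4 (0.20, adjusted p 0.49) or Tnfrsf9 (0.32, adjusted p 0.389). The share of all genes called in that setting was not computed, so these calls cannot set the receptor genes apart from other genes. Within cycling CD8 T cells, where 4.1% and 2.05% of genes were called in anti-PD-1 and in the combination, Tnfrsf4 changed by 0.48 and Tnfrsf18 by 0.65 in anti-PD-1 (adjusted p 0.0298 and 0.000395). Within the CD8 T cells that were neither cycling nor naive-like, where 2.53% of genes were called, they changed by 0.58 and 0.45 in anti-PD-1 (adjusted p 0.00191 and 0.0289), and Cd27 changed by 0.46 in the combination (adjusted p 0.0205, 1.55% of genes called). No member passed the test in naive-like CD8 T cells, for which no share of all genes called is given here.

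**Figure D4:**
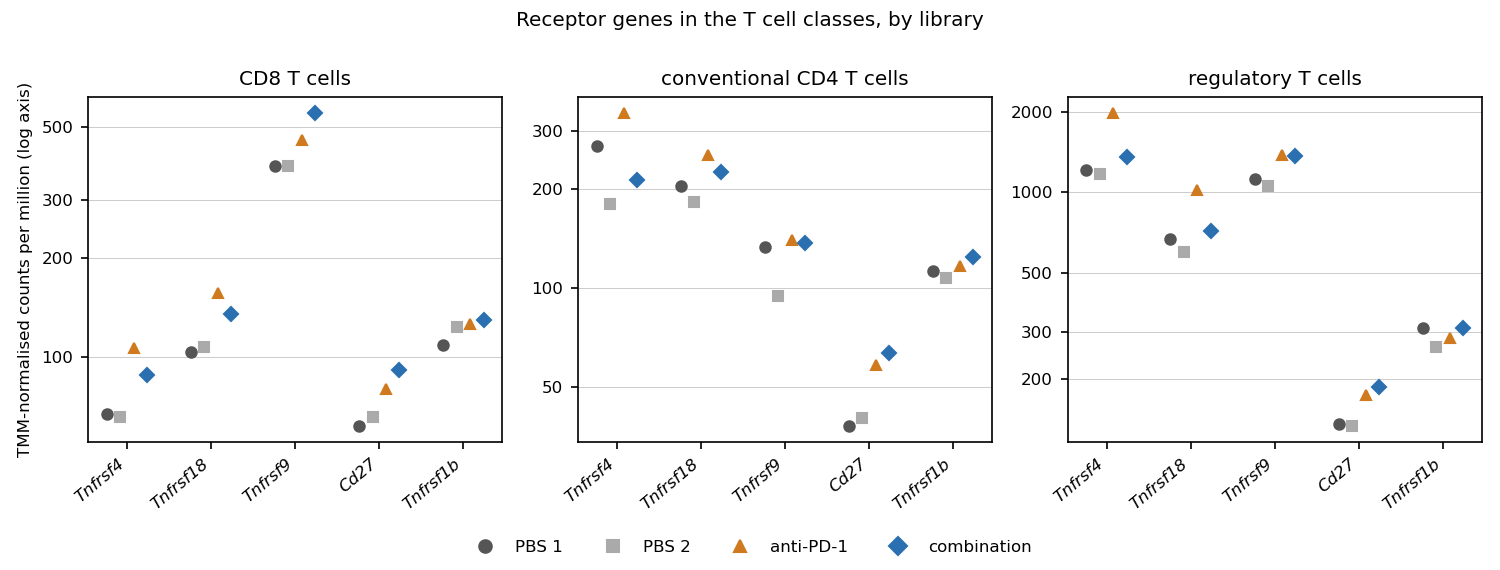
TMM-normalised CPM (y axis, logarithmic) of Tnfrsf4, Tnfrsf18, Tnfrsf9, Cd27 and Tnfrsf1b (x axis) in CD8 T cells, conventional CD4 T cells and regulatory T cells, with 1 symbol per library. In CD8 T cells both treated libraries lie above the PBS pair for the first 4 genes, and in regulatory T cells anti-PD-1 is the highest library for Tnfrsf4 and Tnfrsf18.

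Regulatory T cells had the highest levels of Tnfrsf4, Tnfrsf9, Tnfrsf18 and Cd27 of the 10 classes with at least 50 cells in each library, and no member passed the test there. Tnfrsf4 averaged 1415 ± 340 CPM in them, against 247.9 ± 62.5 in conventional CD4 T cells and 81.4 ± 17.0 in CD8 T cells, and the libraries of these 3 classes did not overlap. Tnfrsf18 followed the same order, with 744.4 ± 167, 214.3 ± 24.4 and 125 ± 21.9. Tnfrsf9 averaged 1224 ± 144 in regulatory T cells, and then 441.7 ± 81.0 in CD8 T cells and 383.7 ± 25 in NK cells, whose libraries overlapped, before double-negative T cells (157.5 ± 13.4) and conventional CD4 T cells (125 ± 19.2). Cd27 averaged 157.7 ± 24.7, above CD8 (74.5 ± 13.4), double-negative, conventional CD4 (49.5 ± 12.2) and NK cells (36.9 ± 4.11), which overlapped from each to the next.

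The receptors were often found together in single regulatory T cells. With each cell thinned to 1000 UMIs, 72.2%, 72.5%, 79.0% and 75.6% of the regulatory T cells held UMIs of at least 2 of the 8 genes. The share was 8.66%, 12.0%, 14.2% and 15.7% in CD8 T cells, 9.51%, 10.9%, 14.9% and 13.8% in conventional CD4 T cells and 5.73% to 8.65% in NK cells. CD45-negative cells, which should lack most of these genes, gave 0% in each library at the same depth. At most 4 regulatory T cells of a library, 26 CD8 T cells, 9 conventional CD4 T cells and 30 NK cells were too shallow and were left out. Without thinning the shares were 96.4% to 98.6% in regulatory T cells (median 3312 to 5768 UMIs) and 18.1% to 24.7% in CD45-negative cells (median 46407.5 to 79920 UMIs).

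In regulatory T cells, Tnfrsf4 read 1214, 1166, 1975 and 1351 on the TMM scale. Anti-PD-1 stood above the other 3 libraries. Its log2 fold change of 0.73 ± 0.19 missed the threshold (adjusted p 0.133; called under 5 of 15 alternatives, among them DESeq2 with an adjusted p of 0.0389). Tnfrsf18 read 669, 597, 1019 and 716, with the same library highest, and its change of 0.69 ± 0.16 also missed it (adjusted p 0.109, called under 6 of 15). Cd27 read 137, 134.2, 175.3 and 187.8, with both treated libraries above PBS and changes of 0.37 ± 0.13 and 0.47 ± 0.13 (adjusted p 0.302 and 0.22). Tnfrsf9 (1120, 1056, 1376 and 1371) and Tnfrsf1b (310.1, 263.5, 285.1 and 310.8) did not pass. At an unadjusted p under 0.05 there were 3 members in anti-PD-1 and 1 in the combination, beside 11.1% and 8.41% of all genes, and few genes of any kind were called in this class (0.16% and 0.296%, and 0.101% between the treated libraries).

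Conventional CD4 T cells likewise gave no call by edgeR or DESeq2, with 3 and 2 members at an unadjusted p under 0.05 (8.02% and 5.5% of all genes), where 0.244% and 0.176% of all genes passed, and 0.215% between the treated libraries. Tnfrsf4 read 270.5, 179.8, 341.2 and 213.9. The PBS libraries lay far apart and the combination fell between them, and the change in anti-PD-1 was 0.60 ± 0.19 (adjusted p 0.171). Tnfrsf18 read 204.5, 182.7, 253.5 and 225.3, and Cd27 read 38.0, 40.2, 58.2 and 63.5, with both treated libraries above the PBS pair in each case. The change of Cd27 in the combination was 0.70 ± 0.24 (adjusted p 0.42). Foxp3 in this class stood at 2.22, 0, 13.7 and 11.8 CPM, and its part in these values was not tested.

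Whether a treatment effect differed between T cell classes was tested as an interaction of class and group over 3 pairs of classes. No member passed in edgeR or DESeq2, and 4 had an unadjusted p under 0.05, as had 5.29% of all genes over the 9 tests. Among all genes, 0.517% and 1.78% were called for CD8 against regulatory T cells in anti-PD-1 and in the combination against PBS, 0.0923% and 0.112% for CD8 against conventional CD4 T cells, and 0.0913% and 0.116% for conventional CD4 against regulatory T cells. Between the treated libraries the shares were 0.383% for CD8 against regulatory T cells, 0.0132% for CD8 against conventional CD4 T cells and 0.0249% for conventional CD4 against regulatory T cells. The 4 included Tnfrsf25 in conventional CD4 against regulatory T cells, where the difference of effects between the 2 treated libraries was -2.27 ± 0.80 (unadjusted p 0.00694, adjusted p 1). Without shared barcodes 2 differences passed, both for CD8 against regulatory T cells in the combination against PBS: Tnfrsf4 at 0.65 ± 0.12 and Tnfrsf9 at 0.53 ± 0.11 (adjusted p 5.91e-06 and 0.000189, with 1.34% and 4.37% of genes called in anti-PD-1 and in the combination). That setting left out 8.79% and 14.6% of the CD8 T cells of PBS 1 and PBS 2, and 3.02% and 4.92% of their regulatory T cells.

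NK cells gave no call by edgeR or DESeq2 (3 and 1 members at an unadjusted p under 0.05, beside 9.89% and 9.19% of all genes; 0.708% and 0.798% of all genes called, and 1.2% between the treated libraries). Tnfrsf9 was well detected in them and read 396.4, 334.7, 411.7 and 397, so that the combination and PBS 1 coincided; the changes were 0.17 ± 0.16 and 0.12 ± 0.16. Tnfrsf18 read 81.3, 73.6, 102.2 and 86.9 (0.40 ± 0.14 in anti-PD-1, adjusted p 0.189). Cd27 read 36.8, 37.2, 33.2 and 40.4, with anti-PD-1 lowest and the combination highest. Tnfrsf4 was scarce, at 2.67, 2.13, 4.98 and 4.66, with both treated libraries above the PBS pair and adjusted p of 0.304 and 0.379.

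Tnfrsf1b, whose product binds TNF and supports survival, was highest in neutrophils, at 356.8 ± 36.1 CPM, followed without overlap by regulatory T cells at 291 ± 19.9. Double-negative, CD8 and conventional CD4 T cells, NK cells and monocytes and macrophages then overlapped from each to the next, between 139.9 ± 20.3 and 101.4 ± 7.76. CD45-negative cells were lowest, at 14.1 ± 1.38. The gene did not pass the test in any of the 9 classes. In neutrophils it read 329.4, 416.3, 404.9 and 335, where the PBS libraries were farther apart than the treated ones, and in monocytes and macrophages it read 99.1, 88.4, 109.5 and 109.9 (0.23 ± 0.11 and 0.23 ± 0.10, adjusted p 0.148 and 0.164).

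Cd40 marked the antigen-presenting classes. It averaged 55.4 ± 9.52 CPM in monocytes and macrophages, 54.3 ± 11.9 in conventional dendritic cells and 47.3 ± 3.43 in B cells, which overlapped, and 3.30 or less in the other 7 classes. Mature dendritic cells, with 198 cells in all, held 213.1 CPM (interval 194 to 234) and also held Tnfrsf4 at 174.2, Tnfrsf9 at 164.6 and Tnfrsf18 at 85.4 CPM. The 5 T cell markers summed to 429 CPM in them, against 40.6 in conventional dendritic cells. In the 144 mature dendritic cells with no T cell marker UMI, Cd40 stood at 251.2, Tnfrsf4 at 126.7, Tnfrsf9 at 106.6 and Tnfrsf18 at 67.8 CPM. In the 340 conventional dendritic cells with none, the same genes stood at 54.4, 3.10, 12.05 and 17.6 CPM.

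In monocytes and macrophages Cd40 was higher in both treated libraries. It read 42.7 and 51.1 in the PBS libraries, 63.8 in anti-PD-1 and 64.7 in the combination, so that the treated libraries were alike and the PBS pair differed. The log2 fold change was 0.44 ± 0.11 in anti-PD-1 and 0.47 ± 0.11 in the combination (adjusted p 0.00166 and 0.000675, called under 9 and 10 of 14 alternatives). This class had many calls of every kind, with 14.8% and 9.31% of 14606 genes (7.86% and 5.31% as higher), and 1 and 3 of its 7 members that passed the filter. The median log2 fold change of those members was 0.23 and 0.58, and that of all genes -0.01 and -0.02. Without shared barcodes the PBS libraries read 48.7 and 61.8 and the treated ones 62.4 and 63.6, and the changes fell to 0.18 (adjusted p 0.729) and 0.21 (adjusted p 0.777), so both calls were lost, where 0% and 0.611% of genes were called.

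Tnfrsf9 and Cd27 were higher in monocytes and macrophages of the combination, as were T cell marker genes in that class. Tnfrsf9 read 18.6, 12.1, 11.7 and 40.1, and its log2 fold change was 1.39 ± 0.15 against PBS (adjusted p 1.1e-17) and 1.78 ± 0.20 against anti-PD-1 (adjusted p 3.79e-16; 9.02% of all genes called). Cd27 read 3.81, 5.45, 4.41 and 8.81, with a change of 0.93 ± 0.28 against PBS (adjusted p 0.0138). In both cases the combination alone stood above the other 3 libraries. The summed level of 5 T cell markers (Cd3e, Cd3d, Cd3g, Trac and Trbc2, none at 0) in the same class was 84.3, 71.3, 54.8 and 191.9 CPM, and 122 of 879, 137 of 745, 154 of 1200 and 291 of 1100 cells held a UMI of one of them. In cells with such a UMI, Tnfrsf9 stood at 68.1, 38.8, 32.7 and 98.5 CPM, and in cells without one at 5.41, 4.89, 6.54 and 11.1. Without those cells the change of Tnfrsf9 was 1.14 ± 0.24 against PBS (adjusted p 0.1) and 0.69 against anti-PD-1 (adjusted p 0.316), that of Cd27 was 0.34 (adjusted p 0.806), and that of Cd40 was 0.51 and 0.49 in the 2 treated groups (adjusted p 0.0986 and 0.162), where 2.38% and 0.682% of genes were called in anti-PD-1 and in the combination against PBS. No call of a member in this class was kept in that setting, where fewer genes of any kind were called against PBS than with all cells. The changes of Cd40 were no smaller there than with all cells, whereas those of Tnfrsf9 and Cd27 were smaller. Without shared barcodes Tnfrsf9 changed by 2.36 against PBS (adjusted p 0.00886) and by 1.81 against anti-PD-1 (adjusted p 0.22). Cd27 in that setting changed by 1.27 against PBS (adjusted p 0.341).

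**Figure D5:**
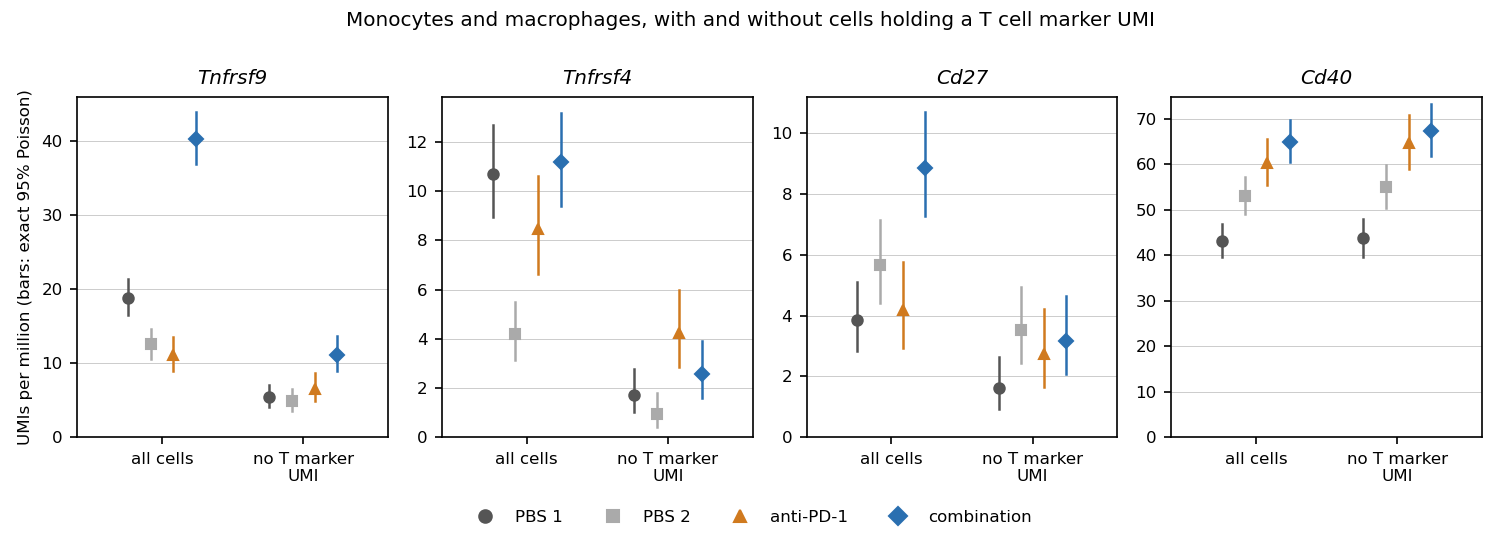
Tnfrsf9, Tnfrsf4, Cd27 and Cd40 in monocytes and macrophages, in CPM (y axis, exact 95% Poisson intervals as bars), in all cells and in cells with no UMI of 5 T cell markers (x axis), with 1 symbol per library. Tnfrsf9, Tnfrsf4 and Cd27 are lower in cells with no T cell marker UMI, while Cd40 stays between 43.1 and 67.3 CPM in both sets.

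Tested separately, macrophages gave Tnfrsf9 in the combination (1.48 ± 0.21, adjusted p 0.0166, with 4.44% and 1.96% of genes called in anti-PD-1 and in the combination) and monocytes gave Tnfrsf4 in anti-PD-1. Monocyte Tnfrsf4 read 1.88, 1.46, 11.7 and 6.23, a change of 2.79 ± 0.51 (adjusted p 0.00576), in a comparison where 0.282% of genes were called (0.555% in the combination). Both treated libraries stood above the PBS pair. In monocytes with no T cell marker UMI the unscaled levels were 2.06, 1.05, 7.21 and 4.24 CPM, in the same order. A macrophage cluster of 288 cells led by C1qc held Cd3e at 78.2 CPM, under the threshold of 100 for more than 1 lineage. The part of T cell transcripts in the macrophage Tnfrsf9 change was not tested.

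In CD45-negative cells, Tnfrsf9 was low in every library and rose in the combination. It read 2.29, 2.04, 3.32 and 4.296, with both treated libraries above the PBS pair, and changed by 0.97 ± 0.31 (adjusted p 0.0438), where 3.87% of genes were called (1.95% as higher) and 1 of 7 members that passed the filter. No member was called there in anti-PD-1 (5.56% of genes, 2.81% as higher) or between the treated libraries (4.58%). The call was made under 6 of 13 alternatives and was lost without cells that held a T cell marker UMI (0.56, adjusted p 0.746), where 2.73% of genes were called, and 3.02% in anti-PD-1. It could not be fitted without shared barcodes. In B cells Tnfrsf9 read 6.83, 4.34, 38.2 and 28.7, higher in both treated libraries but with adjusted p of 0.27 at the lowest. T cell markers in B cells summed to 31.5, 21.4, 60.4 and 54.1 CPM (1 of 5 at 0 in PBS 2) and regulatory T cell markers to 20.98, 46.99, 110.4 and 108.2 CPM (1 or 2 of 5 at 0), and in B cells with no T cell marker UMI Tnfrsf9 stood at 7.19, 4.95, 14.7 and 16.3 CPM. Cd40 in B cells read 46.4, 45.6, 51.6 and 52.9. In conventional dendritic cells Cd40 read 46.4, 71.4, 50.8 and 52.0, with both treated libraries inside the PBS range. B cells, conventional dendritic cells and neutrophils gave no call by edgeR or DESeq2. At an unadjusted p under 0.05, B cells had 2 members in anti-PD-1 and 1 in the combination, conventional dendritic cells 1 and 0, and neutrophils 0 and 1, beside 5.99% and 6.5%, 6.91% and 6.92%, and 5.36% and 6.01% of all genes, in classes where 0.211% and 0.271%, 0.179% and 0.359%, and 0.0345% and 0.0345% of all genes were called. Between the treated libraries the 3 classes had 1, 0 and 0 members at an unadjusted p under 0.05, beside 7.25%, 7.32% and 4.03% of all genes, where 0.286%, 0.335% and 0.0172% of all genes were called.

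Tnfrsf14, whose product HVEM binds LIGHT, BTLA and CD160, was low in every class. It averaged 3.54 ± 0.26 CPM in monocytes and macrophages and 2.26 or less elsewhere, and none of its changes passed the test.

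The ligand genes differed in the classes that held them. Tnfsf4, which encodes the ligand of OX40, stood at 77.3 CPM in mature dendritic cells (interval 65.8 to 90.2), with 47.4, 54.6, 90.7 and 114.2 CPM in PBS 1, PBS 2, anti-PD-1 and the combination. Cd70, the ligand gene of CD27, stood at 48.5 CPM in the same cells, with 35.0, 32.5, 85.9 and 49.4. Both treated libraries were above the PBS pair in each, but this class was too small in PBS to be tested. Tnfsf9, the ligand gene of 4-1BB, was found at 24.0 CPM in mature dendritic cells, 21.04 in conventional dendritic cells and 9.53 in monocytes and macrophages, and Tnfsf18, that of GITR, was at 3.49 or less in every class. Cd40lg, which CD4 T cells use to engage CD40, stood at 114.4 CPM in conventional CD4 T cells and 79.2 in gamma-delta T cells, and Tnf at 246.8 in 103 mast cells, 192 in neutrophils and 77.5 in monocytes and macrophages.

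Of 17 ligand genes, 14 could be tested in conventional CD4 T cells and 1 was called in anti-PD-1 against PBS, beside 0.244% of all genes: Tnfsf11, which encodes RANKL, fell by 1.34 on the log2 scale (263.2, 192.5, 89.8 and 165.5, adjusted p 4.81e-06). In NK cells 1 of 12 fell, beside 0.708% and 0.798% of all genes called in anti-PD-1 and in the combination. This was Lta, which encodes lymphotoxin alpha: it read 7.78, 7.39, 2.65 and 2.33 and changed by -1.51 and -1.70 (adjusted p 0.0354 and 0.00433). Without shared barcodes the change of Tnfsf11 was -1.37 (adjusted p 2.79e-06), and those of Lta were -0.96 and -1.15 and passed in neither group (adjusted p 0.556 and 0.702). In monocytes and macrophages, where 14.8% and 9.31% of all genes were called, 1 of 14 ligand genes rose and 1 fell in anti-PD-1, and 5 rose and 2 fell in the combination. Tnf read 57.4, 76.9, 93.4 and 86.9 and rose by 0.48 and 0.37 (adjusted p 0.00021 and 0.00722), while the sum of 6 neutrophil markers in the same class (none at 0) was 54.0, 80.8, 149.6 and 117.3 CPM, whose part was not tested. Tnfsf8 read 27.1, 12.6, 10.1 and 12.2, with changes of -0.97 and -0.70. The combination thus stood close to PBS 2 and PBS 1 alone was high. Tnfsf10, which encodes TRAIL, read 11.5, 9.88, 12.5 and 18.1 and rose in the combination (0.76, adjusted p 0.00179). None of the ligand genes called in monocytes and macrophages was called without shared barcodes, or without cells holding a T cell marker UMI. Against PBS, the first setting called 0% and 0.611% of all genes in anti-PD-1 and in the combination, and the second 2.38% and 0.682%. With no gene called in anti-PD-1, the first setting cannot set ligand genes apart there.

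Downstream genes in monocytes and macrophages are to be read beside the 14.8% and 9.31% of all genes called there in anti-PD-1 and in the combination. Of 21 adaptor and proximal signalling genes, 3 were higher and 1 lower in anti-PD-1 and 3 were higher in the combination. Traf1, an adaptor of these receptors and itself a target of NF-kB, read 23.3, 24.3, 42.7 and 41.4 and rose by 0.84 and 0.80 (adjusted p 1.32e-08 and 1.93e-08). Of 17 genes of NF-kB and its direct targets, 5 were higher and 1 lower in anti-PD-1, and 2 were higher in the combination. The lower one had the smallest p: Bcl2a1d, a survival gene, read 86.0, 63.0, 42.6 and 77.8 and fell by 0.81 in anti-PD-1 (adjusted p 1.16e-09). Nfkb2 rose there by 0.55 (adjusted p 0.000119). Bcl2a1d also fell in anti-PD-1 among conventional CD4 T cells (-1.01, adjusted p 0.0118), where it read 168.8, 97, 65.8 and 122.6 and the PBS libraries lay far apart. In NK cells it read 59.6, 33.3, 27.1 and 37.4 and changed by -0.78 in anti-PD-1 (adjusted p 0.025), a call lost without shared barcodes (adjusted p 0.151). Of 13 other TNF receptor genes tested, 3 were higher in each treated group, with 1 lower in the combination. Fas rose there by 0.66 (adjusted p 0.000153). The median changes of these 3 lists, in the order named, were 0.002, 0.01 and 0.30 in anti-PD-1, where that of all genes was -0.01, and 0.18, 0.06 and 0.16 in the combination, where that of all genes was -0.02. Without shared barcodes none of the genes of these 3 lists that were called against PBS in the class was called. In that setting 0% and 0.611% of all genes were called in anti-PD-1 and in the combination. For anti-PD-1 it therefore cannot set these lists apart from other genes. The changes of Traf1 were then 0.35 and 0.32 (adjusted p 0.444 and 0.603), and that of Bcl2a1d was -0.62 (adjusted p 0.276). In CD45-negative cells 1 adaptor gene was higher and 2 lower in anti-PD-1, and 2 of 16 NF-kB genes were higher, beside 5.56% of all genes.

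In CD8 T cells, 2.83% and 2.17% of all genes were called in anti-PD-1 and in the combination. Of 16 NF-kB genes tested there, 2 were higher in the combination, the survival genes Bcl2a1d (0.46, adjusted p 0.0397) and Bcl2a1b (0.44, adjusted p 0.044), and the list's median was -0.07 against -0.02 for all genes. Of 13 other TNF receptor genes tested, Tnfrsf26 was lower (-0.76, adjusted p 0.0345). Of 19 T cell activation genes outside the family, 1 was lower in anti-PD-1, Myc (-1.27, adjusted p 0.00826), and in the combination 2 were higher and 1 lower: Ctla4, an inhibitory receptor, rose by 0.77 (adjusted p 0.0136), Il2ra rose by 0.43 and Nr4a3 fell by 0.49. Each of these genes was also called in CD8 T cells without shared barcodes, but with shared barcodes kept only in the library with most UMIs neither Bcl2a1 gene was called in the combination (adjusted p 0.0532 for Bcl2a1d). In monocytes and macrophages of the combination 10 of these 19 genes were higher and 1 lower, with a median of 0.34 against -0.02 for all genes, beside the higher T cell marker sum in that library. Without shared barcodes 3 of these 11 were called, beside 0.611% of all genes. Once cells with a T cell marker UMI were left out, none of the 10 still tested was called, beside 0.682% of all genes.

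Over 40 sums of 10 classes and 4 libraries, which share libraries and depth, the genes whose log2 level was most like that of each receptor gene were listed among 12765 genes by Pearson correlation, as a description. For Tnfrsf25 they were Siah3 (0.911), Gm13481 (0.907) and Stat5b (0.907), and for Tnfrsf4 they were Penk (0.917), Neb (0.905) and Mt3 (0.903). Tnfrsf9 was most like Igflr1 (0.963), Gzmb (0.961), which encodes granzyme B, and Sytl2 (0.945). Tnfrsf18 was most like Kdm2b (0.956), Dnah8 (0.943) and Icos (0.942), a costimulatory receptor of another family, and Cd27 most like Tnik, Vgll4 and Igflr1 (0.944 each). Tnfrsf1b was most like Mxd1 (0.935), and Cd40 most like Ly86 (0.964), H2-DMa (0.954) and H2-Ab1 (0.95), of which the last 2 belong to antigen presentation by MHC class II. For Tnfrsf14 the highest value was 0.733, for Paqr7. By Spearman correlation the 3 genes most alike changed for each of the 8 receptor genes. For Tnfrsf25 they were Fam124b (0.892), Nfatc2 and Gm50218 (0.884 each), and for Cd40 they were Tmem51 (0.869), Ms4a4c (0.86) and Ero1lb (0.858). Among the receptors themselves, Tnfrsf9, Tnfrsf18 and Cd27 were most alike (0.913 for each pair), and Tnfrsf25 was nearest to Tnfrsf18 (0.741) and Tnfrsf4 (0.721).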

How the data were processed

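The deposited files held raw UMI counts per gene and cell barcode, which the authors made with Cell Ranger, version 3.0.2 with the mm10 build per the submitters' processing notes and version 7.1.0 per the file headers. The members, set by symbol and not by a value, and the gene lists were chosen with earlier results of these data known.

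Barcodes with fewer than 200 detected genes, or with 15% or more of their UMIs from mitochondrial genes, were removed. The automatic threshold of Scrublet marked at most 0.0761% of a library, so the barcodes with the highest scores were removed instead, at 0.8% per 1000 barcodes (354, 324, 1364 and 975 barcodes in PBS 1, PBS 2, anti-PD-1 and the combination), leaving 6219, 5957, 11523 and 9932 cells. Scanpy 1.11.5 was used to cluster cells (Leiden, 2000 variable genes, 30 components, 20 neighbours, resolution 1; then again with 20 components within T cells and within other leukocytes at resolution 1.5 and within CD45-negative cells at resolution 0.8). The 8 receptor genes were left out of the genes clustered on. Clusters were named by marker genes, with thresholds set after seeing the data. Clusters of low depth (7.27%, 17.0%, 29.8% and 4.53% of cells) and clusters with markers of more than 1 lineage (6.51%, 6.23%, 3.64% and 8.86%) stayed unnamed, which left 5362, 4575, 7668 and 8602 cells in named classes.

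Counts were summed by class and library and tested across all genes that passed filterByExpr (minimum 10) with edgeR 4.0.16 (TMM, robust quasi-likelihood test, R 4.3.3), with Benjamini-Hochberg adjustment over all genes tested and a threshold of 0.05. DESeq2 1.42.0, other scalings, filters, cell selections and clusterings were alternatives, and the tests were checked on simulated data. An alternative that alters only some classes repeats the main result in the others, and these repeats are included in every count of alternatives. Every member was named whatever its values. Of each other list, at most 3 called genes with the lowest p in a comparison were named, and for each member the 3 genes most like it by Pearson correlation of log2(CPM + 1) over class sums of at least 50 cells. For shares across depths, each cell was thinned to 1000 UMIs. Barcodes in more than 1 library were counted and, in an added alternative, left out. Coordinates are those of GENCODE M21 (GRCm38). The summed level of the naive-like T cell markers is not reported here.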

Additional observations from a re-analysis of the deposited data

How the results depend on the processing

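Across the 8 genes and 9 classes, the count of changes that passed the test moved with the processing. For anti-PD-1 against PBS, 3 pairs of gene and class became 5 when clusters with Foxp3 and markers of another lineage were counted as regulatory T cells, 5 with sums thinned to equal totals and 8 with doublets kept. For the combination against PBS, 7 became 2 with DESeq2, 4 without shared barcodes, 3 with thinned sums, 3 at a higher clustering resolution, 4 with the receptor genes among those clustered on, 3 with mitochondrial UMIs under 10% and 3 without the myeloid, B and CD45-negative cells that held a T cell marker UMI. For the combination against anti-PD-1, 1 became 2 with RLE scaling and 0 with DESeq2, without shared barcodes, with doublets kept, at the higher resolution, with mitochondrial UMIs under 10%, with monocytes and macrophages apart, without those cells and with no filter on low counts. For differences between T cell classes, 0 became 2 without shared barcodes. The cause was not tested. Apart from DESeq2, the share of all genes called over the 9 classes together was not computed for these settings. Their counts of pairs therefore cannot set the receptor genes apart from other genes. No direction reversed. The alternatives on shared barcodes and T cell marker UMIs were chosen after seeing the data. With each shared barcode kept only in its larger copy, the 3 counts were again 3, 7 and 1.

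Leaving out 1 PBS library leaves no residual degrees of freedom, so those values have no test: Tnfrsf4 in CD8 T cells in anti-PD-1 ranged from 0.67 to 0.73, and in monocytes and macrophages of the combination Tnfrsf9 ranged from 1.11 to 1.73, Cd27 from 0.69 to 1.21 and Cd40 from 0.34 to 0.60. No paired analysis was possible because each treated group has 1 library. The comparison of Tnfrsf25 rested on 20 to 31 UMIs per library in conventional CD4 T cells.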
